A study of Drosophila melanogaster with 21 samples.

Results

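Voltage-gated and leak ion channel genes were examined in the heads of flies with neuronal knockdown of homologs of genes in the 3q29 region. A list of 38 genes for sodium, calcium, potassium, HCN, sodium leak and chloride channels and their auxiliary subunits was matched to the counted genes by symbol, and 36 of the 38 were found among 17559 genes. The sodium channel gene *para* and the calcium channel subunit gene *Ca-beta* were not analysed here. Of the 36 genes, 26 encode pore-forming subunits and 10 encode auxiliary subunits, and all 36 passed the filter on low counts.

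The libraries came from pooled whole heads of females, 3 biological replicates for each of 7 groups. All groups, controls included, carried the pan-neuronal driver *Elav-GAL4* on a *w1118* X chromosome. Flies with *dlg1* knockdown (VDRC line 41136) and *Fsn* knockdown (line 26577) were in the GD background and were compared with Control GD, the wVDRC line crossed with the driver. *Cbp20* knockdown flies (line 107112) and the pairwise knockdowns *Cbp20/dlg1* (lines 107112 and 41136) and *Cbp20/Fsn* (lines 107112 and 26577) were labelled with the KK background and were compared with Control KK (line 60100). The pairwise flies also carried a GD line, so neither control matches them fully. Each gene was targeted with 1 RNAi line, and no age was given for the sequenced flies. The driver acts in neurons whereas whole heads also hold glia, eye, muscle and fat body, and their RNA is in these libraries too.

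Ion channels set the electrical behaviour of neurons. Voltage-gated sodium channels carry the rising phase of the action potential, calcium channels couple it to transmitter release and gene regulation, and voltage-gated and calcium-activated potassium channels repolarize the membrane. HCN channels, two-pore potassium channels and the sodium leak channel act near the resting potential, where they set how readily a neuron fires. Inward rectifier potassium channels of flies are best known from the renal tubules, and *dlg1* itself encodes a scaffold that binds and clusters Shaker potassium channels at the neuromuscular junction.

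Gene counts per library were between 17712938 and 28759171, and the lowest count of any channel gene in any library was 186 for *sand*. The targeted genes were lower in their own libraries, but *dlg1* did not pass the test in its single knockdown. *Cbp20* was at 5.08, 5.63 and 5.19 CPM, the count normalized to library size, in *Cbp20* knockdown heads, against 14.7, 14.3 and 14.5 CPM in Control KK heads. *Fsn* was at 19.9, 17.03 and 19.4 CPM in *Fsn* knockdown heads, against 26.5, 29.7 and 27.0 CPM in Control GD heads. *dlg1* was at 337.5, 352.1 and 371.2 CPM in *dlg1* knockdown heads, against 410.5, 408.1 and 387.6 CPM in Control GD heads, with no overlap, but this difference did not pass the test (log2 fold change −0.18 ± 0.10 SE, edgeR quasi-likelihood FDR = 0.316). *dlg1* was also at 257.1, 367.0 and 350.8 CPM in *Fsn* knockdown heads, where it was not targeted, a range that overlaps that of the *dlg1* libraries. In *Cbp20/dlg1* heads the log2 fold changes against Control KK were −1.30 for *Cbp20* and −0.35 for *dlg1* (edgeR FDR = 1.45e-08 and 0.0238). In *Cbp20/Fsn* heads they were −1.23 for *Cbp20* and −0.53 for *Fsn* (edgeR FDR = 2.03e-08 and 0.000161). Single libraries of the *Fsn*, *Cbp20/dlg1* and *dlg1* groups stood apart. *Fsn* replicate 1 had a summed neuron marker level of 6302 CPM, against 9204 and 8426 CPM in the other *Fsn* libraries, and *Cbp20/dlg1* replicate 3 had 8155 CPM, against 9893 and 9686 CPM. *dlg1* replicate 3 was high, at 11103 CPM, against 9652 and 9821 CPM in the other *dlg1* libraries. Counts of channel genes in the comparisons of these groups are also given without them. The neuron markers (11 genes, *elav*, *nSyb* and *brp* among them) were above 0 in every library.

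Levels per length were first compared among the channel genes in Control GD heads, in CPM per kb of exon. The highest level by far was that of *qvr*, which encodes quiver (sleepless), a membrane-anchored regulator of Shaker channels, at 179.7 CPM per kb (173.3 to 185.2 over the 3 libraries). The calcium channel subunit gene *stj* (65.7 CPM per kb) and *slo*, the large-conductance calcium-activated potassium channel (65.5 CPM per kb), followed and did not differ beyond their spread. *TEH2*, a subunit of the sodium channel of the TipE family, had 56.8 CPM per kb, and *NaCP60E*, which encodes a voltage-gated cation channel related to sodium channels, had 53.5 CPM per kb, again overlapping. At the low end were *Shawl* at 8.28 CPM per kb, the two-pore potassium channel genes *Ork1* (7.58 CPM per kb) and *sand* (6.11 CPM per kb), and the inward rectifier gene *Irk1* (5.23 CPM per kb). *TEH2* and *TEH3* share exonic sequence on the same strand, and reads that fall on both were left uncounted, so their levels per kb are too low.

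**Figure D1:**
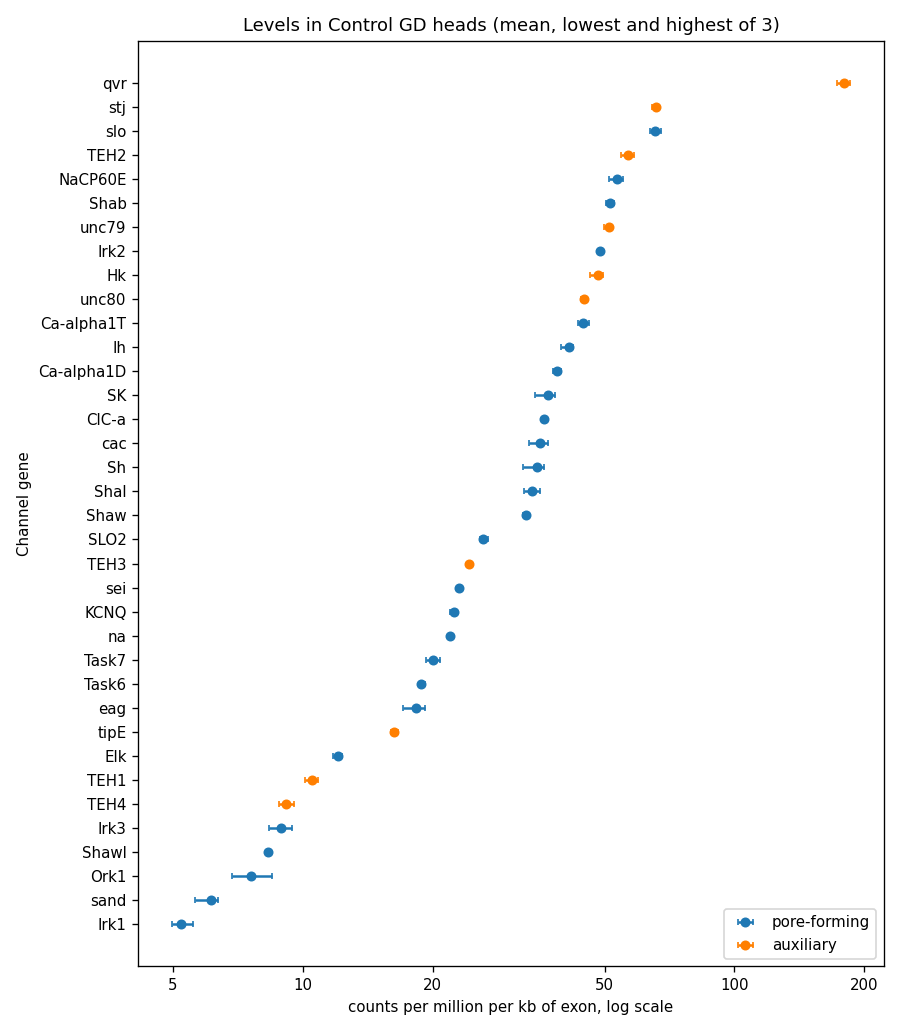
Level of each of 36 channel genes in Control GD heads, in CPM per kb of exon on a log axis; points are means of 3 libraries, lines run from the lowest to the highest library, and colour separates pore-forming from auxiliary subunits. *qvr* stands alone at 179.7, and *Irk1* is lowest at 5.23.

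Across the 7 groups, the same groups were most often the lowest and the highest. The mean was lowest in *Fsn* knockdown heads for 27 of 36 genes and highest in *Cbp20* knockdown heads for 24 of 36. Mean levels of the calcium channel gene *cac*, the presynaptic channel of fly neurons, were 294.7 ± 79.2 CPM in *Fsn* heads and 492.9 ± 21.3 CPM in *Cbp20* heads (SD, n = 3 each), its lowest and highest groups. The 9 genes whose lowest group was another were *TEH4*, *KCNQ*, *Irk1*, *Irk2*, *Irk3*, *Ork1*, *sand*, *Task7* and *ClC-a*. Variation between single libraries was smallest for *ClC-a*, a chloride channel of the ClC-2 type, and *Task7*, each differing 1.25-fold between the highest and the lowest of the 21 libraries. *TEH3* had the widest range, 4.46-fold.

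Channel genes fell together in *Fsn* knockdown heads. *Fsn* encodes an F-box protein of a ubiquitin ligase that limits synaptic growth at the fly neuromuscular junction. Against Control GD, 26 of 36 channel genes fell and 2 rose at an FDR under 0.05, whereas 17.9% of all 10558 genes tested fell and 20.3% rose. The median log2 fold change was −0.40 over the channel genes and 0.03 over all genes. None of the 36 also passed a log2 fold change beyond 1 in edgeR or DESeq2, with or without adjustment, which 2.41% of all genes did in either direction. The falls ran through all 4 calcium channel genes, all 3 calcium- or sodium-activated potassium channel genes (*slo*, *SLO2* and *SK*), all 3 sodium leak genes, 9 of 11 genes of voltage-gated potassium channels and their subunits, 5 of 6 of the sodium channel group and the HCN gene *Ih*. They included 17 of 26 pore-forming genes and 9 of 10 auxiliary genes. These counts rested in part on *Fsn* replicate 1. Without it 14 channel genes fell, beside 9.57% of all genes, among them 9 pore-forming and 5 auxiliary genes. They were 2 of 4 calcium channel genes, 1 of 3 calcium- or sodium-activated potassium channel genes (*SLO2*), all 3 sodium leak genes, 5 of 11 genes of voltage-gated potassium channels and their subunits, 2 of 6 of the sodium channel group and the two-pore gene *Task6*, whereas *Ih* did not pass (FDR = 0.124).

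The sodium channel group held the largest falls. *TEH3* (3L:4182645-4184663), a TipE-family subunit, was at 10.6, 33.3 and 25.6 CPM in *Fsn* heads, against 38.9, 38.1 and 38.6 CPM in Control GD heads. All *Fsn* libraries lay below the control libraries, and replicate 1 lay far below the other two. Its log2 fold change was −0.75 ± 0.26 (SE, edgeR FDR = 0.0327), but −0.40 without *Fsn* replicate 1, where it no longer passed (FDR = 0.150). It also missed the threshold without any 1 of the 3 Control GD libraries, at log2 fold changes of −0.74, −0.76 and −0.75. *NaCP60E* on chromosome arm 2R was at 350.2, 637.3 and 525.9 CPM in *Fsn* heads, against 863.7, 845.1 and 799.2 CPM in Control GD heads. The groups did not overlap, and the log2 fold change was −0.73 ± 0.17 (SE, FDR = 0.00295). Both genes were shown because they were called without overlap, so the lack of overlap adds no support. *tipE*, *TEH1* and *TEH2* fell by less, with log2 fold changes of −0.38, −0.31 and −0.22, and *TEH4* did not pass (−0.10, FDR = 0.208). Without *Fsn* replicate 1 *tipE* still fell, whereas *TEH1* (−0.18, FDR = 0.0507) and *TEH2* (−0.14, FDR = 0.141) did not pass, and the call of *TEH2* was lost in 3 of the 6 fits that left out 1 library.

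Among calcium channel genes, *Ca-alpha1T* (X:6104085-6192483), the T-type channel, fell most. Its levels were 254.0, 459.2 and 397.8 CPM in *Fsn* heads, against 605.5, 584.0 and 569.7 CPM in Control GD heads. The lack of overlap was again required for showing the gene and adds no support. The log2 fold change was −0.66 ± 0.16 (SE, FDR = 0.0048). *cac*, the L-type channel gene *Ca-alpha1D* and the alpha2-delta subunit gene *stj* had log2 fold changes of −0.52, −0.49 and −0.33. Without *Fsn* replicate 1 *stj* still fell, whereas *cac* (−0.34, FDR = 0.0506) and *Ca-alpha1D* (−0.29, FDR = 0.109) did not pass, and the call of *Ca-alpha1D* was lost in 3 of the 6 fits that left out 1 library. The sodium leak complex fell as a whole. It joins the pore protein narrow abdomen, from *na*, to the auxiliary proteins of *unc79* and *unc80*, and supports rhythmic behaviour in flies. *unc80* (3R:27662439-27677099) was at 237.1, 362.9 and 316.3 CPM in *Fsn* heads, against 462.6, 452.2 and 462.8 CPM in Control GD heads. Its log2 fold change was −0.59 ± 0.14 (SE, FDR = 0.0036), and those of *na* and *unc79* were −0.44 and −0.42.

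The potassium channel genes were divided. *Sh*, the A-type Shaker channel (X:17924307-18063247), was at 372.5, 678.3 and 563.7 CPM in *Fsn* heads, against 825.2, 820.6 and 737.9 CPM in Control GD heads, a log2 fold change of −0.56 ± 0.16 (SE, FDR = 0.0117) that did not pass without replicate 1 of *Fsn* (−0.37, FDR = 0.0601). Its cytoplasmic subunit gene *Hk* (−0.48) and its regulator *qvr* (−0.29) fell with it, but *qvr* was lost in 4 of the 6 fits that left out 1 library, among them that without *Fsn* replicate 1 (−0.17, FDR = 0.174). *eag* (−0.55), *Shawl* (−0.47), the delayed rectifier gene *Shab* (−0.46), *Shaw* (−0.43), the somatodendritic A-type gene *Shal* (−0.41) and *sei* (−0.19), the fly ERG channel, fell too. Of these, *Shaw* (−0.25, FDR = 0.0666) and *sei* (−0.14, FDR = 0.0501) did not pass without *Fsn* replicate 1, and *Shawl* was at −0.30. Of the calcium- or sodium-activated channel genes, *SLO2* still fell without that library, whereas *slo* (−0.31, FDR = 0.0658) and *SK* (−0.25, FDR = 0.147) did not pass. *Elk* (−0.31, FDR = 0.0554) and *KCNQ* (−0.08, FDR = 0.341) did not pass. Of the two-pore channel genes, *Task6* fell (−0.39, and −0.25 without *Fsn* replicate 1), whereas *Task7* (0.04) and *sand* (−0.15) did not pass. *Irk2* (0.05), *Irk3* (0.07) and *ClC-a* (0.01) did not pass either.

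The 2 genes that rose in *Fsn* heads were the two-pore gene *Ork1* and the inward rectifier gene *Irk1*. None of the other two-pore and inward rectifier genes rose. *Ork1* (X:10878054-10891250), the open rectifier, was at 38.6, 38.7 and 42.3 CPM in *Fsn* heads, against 33.1, 30.7 and 38.0 CPM in Control GD heads. The groups were just apart, which was required for showing the gene. The log2 fold change was 0.23 ± 0.09 (SE, FDR = 0.0459), a call lost in 4 of the 6 fits that left out 1 library. Against Control KK the direction turned, to −0.32 (FDR = 0.0110), and *Ork1* differed between the controls. *Irk1* was at 29.2, 31.7 and 33.6 CPM in *Fsn* heads, against 27.0, 26.1 and 29.2 CPM in Control GD heads, with the highest control library inside the range of the *Fsn* libraries (0.20 ± 0.07 SE, FDR = 0.0457, lost in 4 of those 6 fits). With RLE normalization and with DESeq2 no channel gene rose, and 27 fell with each.

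Replicate 1 carried much of the size of the fall in *Fsn* heads. It was the lowest *Fsn* library for 33 of 36 channel genes, and the median log2 ratio of the channel genes to their Control GD means was −0.70 in replicate 1, −0.18 in replicate 2 and −0.31 in replicate 3. In each of the 3 libraries 31 of 36 genes lay below the control mean. Without replicate 1, where 14 genes fell and 1 rose, the median log2 fold change was −0.26. When the *Fsn* libraries were set against Control KK, 16 fell and 1 rose. When the fit held only the 2 groups, 12 fell and none rose. For these last fits the share of all genes called is not given here.

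Neuron markers moved in the same direction. Of 11 neuron markers, 8 fell in *Fsn* heads and none rose, with a median log2 fold change of −0.38, close to that of the channel genes. The summed marker level was 6302, 9204 and 8426 CPM in *Fsn* heads, against 10687, 10518 and 9805 CPM in Control GD heads. Channel genes summed to 5858, 8835 and 7918 CPM in *Fsn* heads, against 10426, 10270 and 9902 CPM in Control GD heads. Their ratio to the marker sum was 0.929, 0.960 and 0.940 in *Fsn* heads, against 0.976, 0.976 and 1.01 in Control GD heads, without overlap. Such a separation was not particular to *Fsn* heads. In *dlg1* heads the ratio was 1.04, 1.06 and 1.05, above every Control GD library. In *Cbp20/dlg1* heads it was 0.975, 0.999 and 0.900, below every *Cbp20* library (1.04, 1.07 and 1.05) but overlapping Control KK (1.04, 1.01 and 0.993). The same held in *Cbp20/Fsn* heads, at 0.981, 1.02 and 1.01. Of 7 fat body markers 5 rose, with a median log2 fold change of 1.09 and sums of 51481 to 69705 CPM in *Fsn* heads, against 26740 to 33041 CPM in Control GD heads. Of 7 muscle markers tested 5 fell (median −0.37; 6219 to 6915 CPM in *Fsn* heads, against 8221 to 8936 CPM in Control GD heads; *TpnC4* was at 0 in 3 of 21 libraries). Of 8 glia markers 2 fell, of 14 photoreceptor markers 2 rose and 3 fell, and of 7 antenna markers 6 fell (21.4 to 27.7 CPM in *Fsn* heads, against 46.9 to 118 CPM in Control GD heads; *Os-C* was at 0 in 3 of 21 libraries). Without *Fsn* replicate 1, 5 neuron markers fell (median −0.29), 4 fat body markers rose, and 3 muscle and 4 antenna markers fell. The part of these markers in the fall of channel genes was not tested. In whole heads, fewer neurons and less channel RNA per neuron cannot be told apart.

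**Figure D2:**
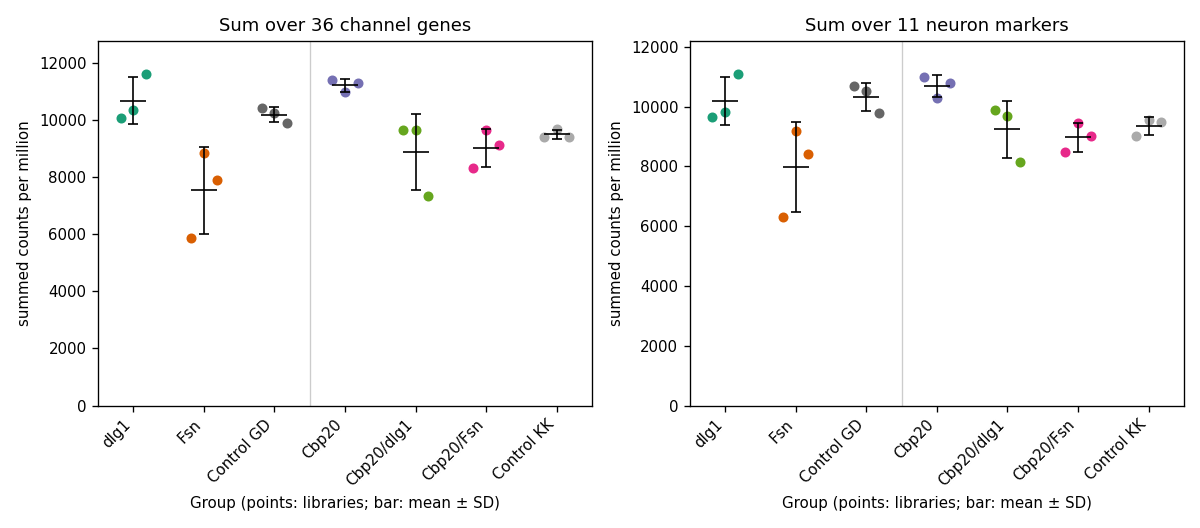
Summed level of 36 channel genes (left) and of 11 neuron markers (right) in each library, in CPM; points are libraries, bars the mean ± SD of 3, and each set of knockdown groups stands left of its control. The *Fsn* libraries lie below the Control GD libraries in both panels, with 5858 and 6302 CPM in *Fsn* replicate 1.

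Other genes of ion transport fell in *Fsn* heads as well. From lists of related genes, 3 of 6 other potassium channel genes, 5 of 11 TRP channel genes, 3 of 6 other chloride channel genes and 5 of 8 other calcium channel genes fell against Control GD, and none rose, beside the 17.9% of all genes that fell. Without *Fsn* replicate 1 each of these 4 lists had 2 genes that fell, beside 9.57% of all genes, and 1 other chloride channel gene rose. *RyR*, the ryanodine receptor of internal calcium stores, had a log2 fold change of −0.61 ± 0.15 (SE, FDR = 0.00419). Among genes that maintain ion gradients 6 of 9 fell, including *Atpalpha*, the sodium pump (−0.34 ± 0.09 SE, FDR = 0.00869). Of 7 regulators of channel RNA or channel proteins 6 fell, among them *Adar*, the RNA editing enzyme (−0.44 ± 0.12 SE, FDR = 0.00866), and *pum*, a translational repressor of sodium channel RNA (−0.43 ± 0.11 SE, FDR = 0.00586). Without *Fsn* replicate 1, 4 genes fell in each of these 2 lists. The TRP list shares *trp* and *trpl* with the photoreceptor markers, and the ion gradient list shares *nrv2* with the glia markers. Their counts are therefore not independent of the marker counts. Long genes fell more. Over the 36 channel genes the Spearman correlation between genomic span and log2 fold change was −0.51, and over 10341 genes tested it was −0.48, a description across genes that share the same libraries. Over the genes tested it was also −0.40 for *Fsn* against *dlg1* and 0.29 for *Cbp20* against Control KK. Against *Cbp20* it was −0.38 for *Cbp20/dlg1* and −0.40 for *Cbp20/Fsn*. Over the channel genes these values were −0.57, 0.53, −0.19 and −0.24. In the other comparisons it was −0.195 to −0.102 over the genes tested and −0.53 to 0.49 over the channel genes. The part of span in the channel levels was not tested. The median span was 16645 bases for channel genes and 2748 bases for all genes tested.

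In *dlg1* knockdown heads the share of channel genes called was near that of all genes. Against Control GD, 2 of 36 channel genes rose and 2 fell, beside 4.24% and 5.02% of all genes, and the median log2 fold change was 0.06 over the channel genes and 0.01 over all genes. None passed a log2 fold change beyond 1 (1.96% of all genes). Without *dlg1* replicate 3, no channel gene rose and 1 fell, with the share of all genes in that fit not given here. The inward rectifier genes *Irk2* and *Irk3* fell. *Irk3* (2L:18711071-18713748) was at 15.04, 12.95 and 12.02 CPM in *dlg1* heads, against 17.5, 18.8 and 19.8 CPM in Control GD heads, a fall that passed without any 1 library (−0.48 ± 0.10 SE, FDR = 0.00253). *Irk2* (3R:23513617-23519445) was at 107.1, 104.0 and 96.4 CPM in *dlg1* heads, against 123.6, 120.5 and 120.6 CPM in Control GD heads (−0.25 ± 0.06 SE, FDR = 0.00976; −0.20 and FDR = 0.0663 without *dlg1* replicate 3). In both genes the groups were fully apart, but the rule for showing them required this, so it adds no support. *KCNQ*, which encodes an M-type potassium channel, rose. It was at 100.6, 95.4 and 105.9 CPM in *dlg1* heads, against 87.0, 85.2 and 88.2 CPM in Control GD heads (0.21 ± 0.07 SE, FDR = 0.0450), and the call was lost with RLE normalization (FDR = 0.0507) and when any 1 library but *dlg1* replicate 2 was left out. *Irk1* also rose (0.26 ± 0.07 SE, FDR = 0.0355, lost in 4 of the 6 fits that left out 1 library), with 29.1, 35.6 and 33.7 CPM in *dlg1* heads overlapping 27.0, 26.1 and 29.2 CPM in Control GD heads.

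*Sh*, whose protein *dlg1* protein is known to bind, did not pass the test at the RNA level. It was at 765.5, 790.8 and 966.6 CPM in *dlg1* heads, against 825.2, 820.6 and 737.9 CPM in Control GD heads, so the groups overlapped. None of 11 neuron markers rose or fell in *dlg1* heads (0 also at an unadjusted p under 0.05 in edgeR and in DESeq2), and their sum was 9652 to 11103 CPM in *dlg1* heads, against 9805 to 10687 CPM in Control GD heads. Of 8 glia markers 5 fell, with a median log2 fold change of −0.36 and sums of 2112 to 2171 CPM in *dlg1* heads, against 2550 to 2579 CPM in Control GD heads. The astrocyte marker *alrm* had a log2 fold change of −1.19 (FDR = 5.81e-08). No glia marker was at 0 in any library. Of 7 antenna markers 4 fell, of 14 photoreceptor markers 3 fell and of 7 muscle markers 2 fell. The part of these markers in the falls of *Irk2* and *Irk3* was not tested.

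**Figure D3:**
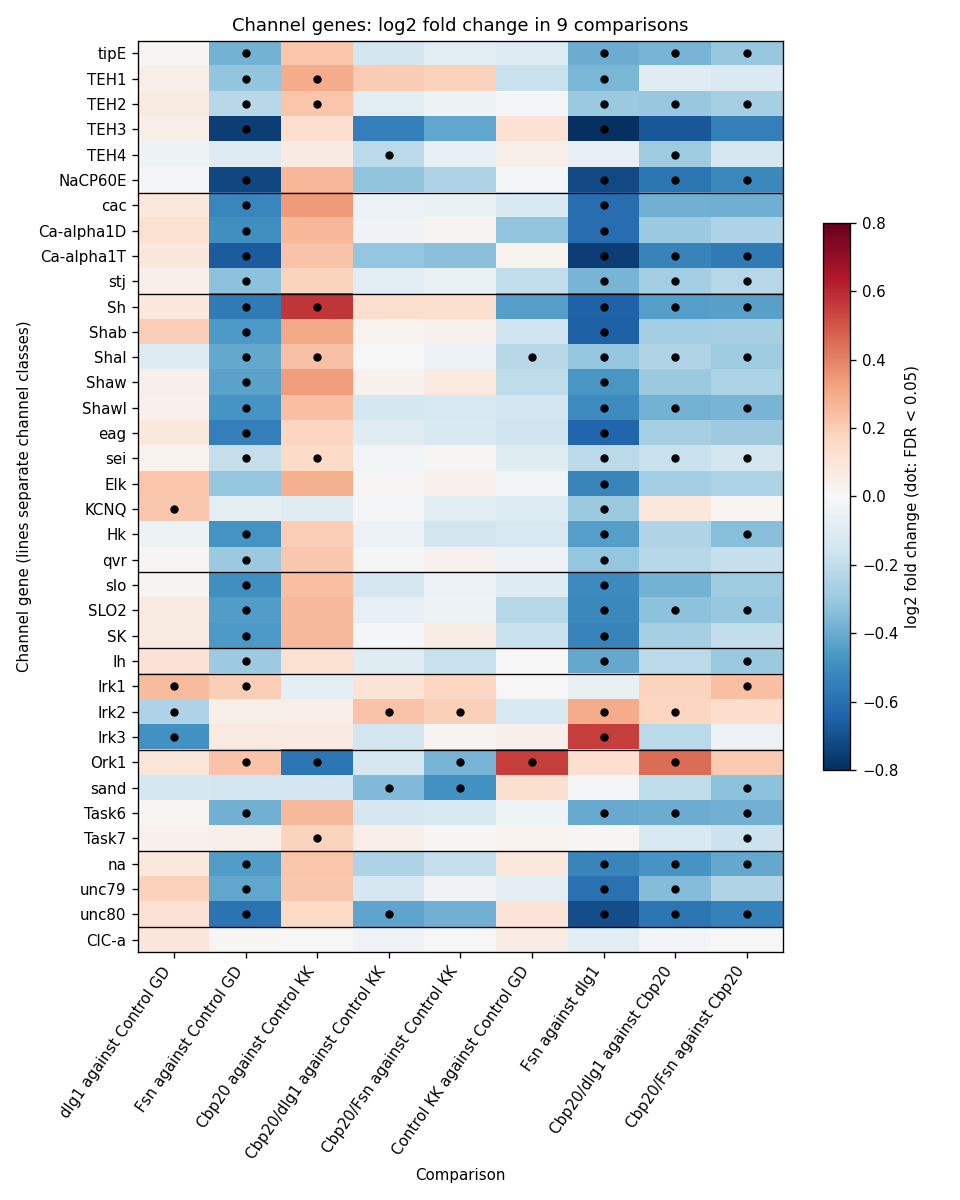
Log2 fold change of 36 channel genes (rows, in channel classes separated by lines) in 9 comparisons (columns); the first-named group is set over the second, red is higher and blue lower, and a dot marks an FDR under 0.05. The columns of *Fsn* against Control GD and of *Fsn* against *dlg1* are blue in nearly all classes except the inward rectifiers, some two-pore channels and *ClC-a*.

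A direct comparison of *Fsn* with *dlg1* knockdown, both in the GD background, gave 30 calls in the fit of all groups. Here 28 of 36 channel genes were lower in *Fsn* heads and 2 were higher, beside 18.6% and 19.9% of all genes, with a median log2 fold change of −0.42 over the channel genes and 0.02 over all genes. None passed a log2 fold change beyond 1 (3.74% of all genes). The lower genes were led by *TEH3* (−0.80 ± 0.27 SE, FDR = 0.0248), *Ca-alpha1T* (−0.76 ± 0.16 SE, FDR = 0.00162), *NaCP60E* (−0.72 ± 0.17 SE, FDR = 0.00247) and *unc80* (−0.71 ± 0.14 SE, FDR = 0.000709). *TEH3* was at 41.2, 39.9 and 38.1 CPM in *dlg1* heads, above every *Fsn* library, yet without *Fsn* replicate 1 (−0.43, FDR = 0.112) or any 1 *dlg1* library it did not pass. All 11 genes of voltage-gated potassium channels and their subunits were lower, *KCNQ* and *Elk* included. Of the 11, 10 were so without *Fsn* replicate 1 and 9 without *dlg1* replicate 3. *Irk3* and *Irk2* were higher in *Fsn* heads than in *dlg1* heads, at 22.02, 18.34 and 18.21 CPM for *Irk3* (0.55 ± 0.10 SE, FDR = 0.000270) and 129.9, 124.4 and 122.7 CPM for *Irk2* (0.29 ± 0.06 SE, FDR = 0.000821). Without *Fsn* replicate 1, 24 genes were lower and 2 higher, beside 11.1% and 14.2% of all genes. *dlg1* replicate 3 was the highest *dlg1* library for 28 of 36 channel genes. Without it 23 were lower and 2 higher, beside 11.7% and 14.3% of all genes. When the fit held only these 2 groups, 12 were lower and 2 higher, with the share of all genes in that fit not given here. Of 11 neuron markers 8 were lower in *Fsn* heads than in *dlg1* heads, with a median of −0.42. Without *Fsn* replicate 1 there were 5 lower, and without *dlg1* replicate 3 there were 4. Of 8 glia markers 6 were higher and none lower (2368 to 2658 CPM in *Fsn* heads, against 2112 to 2171 CPM in *dlg1* heads), with log2 fold changes of 1.16 for *alrm* and 0.92 for *Gat*, a GABA transporter of glia. Of 7 fat body markers 5 were higher (51481 to 69705 CPM in *Fsn* heads, against 27092 to 35456 CPM in *dlg1* heads), and 2 of 7 muscle markers were lower. The part of these markers in the differences of channel genes, *Irk2* and *Irk3* included, was not tested.

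In *Cbp20* knockdown heads most channel genes lay above the control, and 7 of 36 passed the test. *Cbp20* encodes the small subunit of the nuclear RNA cap-binding complex. Against Control KK, 31 of 36 log2 fold changes were positive, but 6 genes rose and 1 fell, beside 7.02% and 14.6% of all genes. The median log2 fold change was 0.22 over the channel genes and 0.01 over all genes, and none passed a log2 fold change beyond 1 (3.24% of all genes). *Sh* rose most, at 896.1, 810.8 and 899.3 CPM in *Cbp20* heads, against 552.4, 615.1 and 586.9 CPM in Control KK heads (0.57 ± 0.16 SE, FDR = 0.0149; 0.53 and FDR = 0.0629 without Control KK replicate 1). Every *Cbp20* library was well above every control library. *TEH1* was at 53.1, 49.3 and 53.3 CPM in *Cbp20* heads, against 40.5, 43.2 and 42.7 CPM in Control KK heads (0.30 ± 0.09 SE, FDR = 0.0228). *Shal* was at 162.1, 154.2 and 158.2 CPM in *Cbp20* heads, against 131.3, 134.1 and 137.7 CPM in Control KK heads (0.23 ± 0.07 SE, FDR = 0.0215). *TEH2* was at 218.3, 208.0 and 220.0 CPM in *Cbp20* heads, against 185.7, 182.5 and 186.4 CPM in Control KK heads (0.22 ± 0.08 SE, FDR = 0.0439). *Sh* and these 3 genes were shown because they were called without overlap between the groups, so the lack of overlap adds no support. The call of *TEH1* was lost in 4 of the 6 fits that left out 1 library, that of *Shal* in 4 and that of *TEH2* in 6. *Task7* (0.18) and *sei* (0.16) rose by less, and their calls were lost in 4 and 5 of those fits.

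*Ork1* fell in *Cbp20* heads. It was at 32.4, 33.1 and 34.4 CPM in *Cbp20* heads, against 53.6, 47.8 and 48.0 CPM in Control KK heads, with a log2 fold change of −0.58 ± 0.09 (SE, FDR = 4.85e-05) that passed without any 1 library. Against Control GD it was −0.03 (FDR = 0.850), and *Sh* (0.13, FDR = 0.627) and *Shal* (0.02, FDR = 0.905) did not pass against that control either. The number of channel genes called in *Cbp20* heads depended strongly on the model. It was 7 in the fit of all groups, 28 (27 up, 1 down) when the fit held only *Cbp20* and Control KK, 13 in the sequencing batches shared by all libraries, 2 against Control GD and 1 without Control KK replicate 1. Shares of all genes called in these other fits are not given here, so the shifts may not be particular to channel genes. Neuron markers again lay on the same side, with 2 of 11 up and none down (median 0.25; 5 up in DESeq2, and 0 to 3 with 1 library left out, where 2 to 5 had an unadjusted p under 0.05; 0 without *Cbp20* replicate 1 or 3 or Control KK replicate 1 or 2) and sums of 10287 to 10981 CPM in *Cbp20* heads, against 9026 to 9556 CPM in Control KK heads. Of 7 fat body markers 6 fell (median −0.81; 19057 to 24979 CPM in *Cbp20* heads, against 45539 to 54809 CPM in Control KK heads), and 5 of 7 muscle markers tested rose (median 0.35; 8844 to 11157 CPM in *Cbp20* heads, against 7256 to 8327 CPM in Control KK heads). Of 7 antenna markers 6 rose, all beyond a log2 fold change of 1 (27.2 to 106 CPM in *Cbp20* heads, against 11.5 to 13.8 CPM in Control KK heads), and of 14 photoreceptor markers 1 rose and 5 fell. The part of these markers in the channel levels was not tested.

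**Figure D4:**
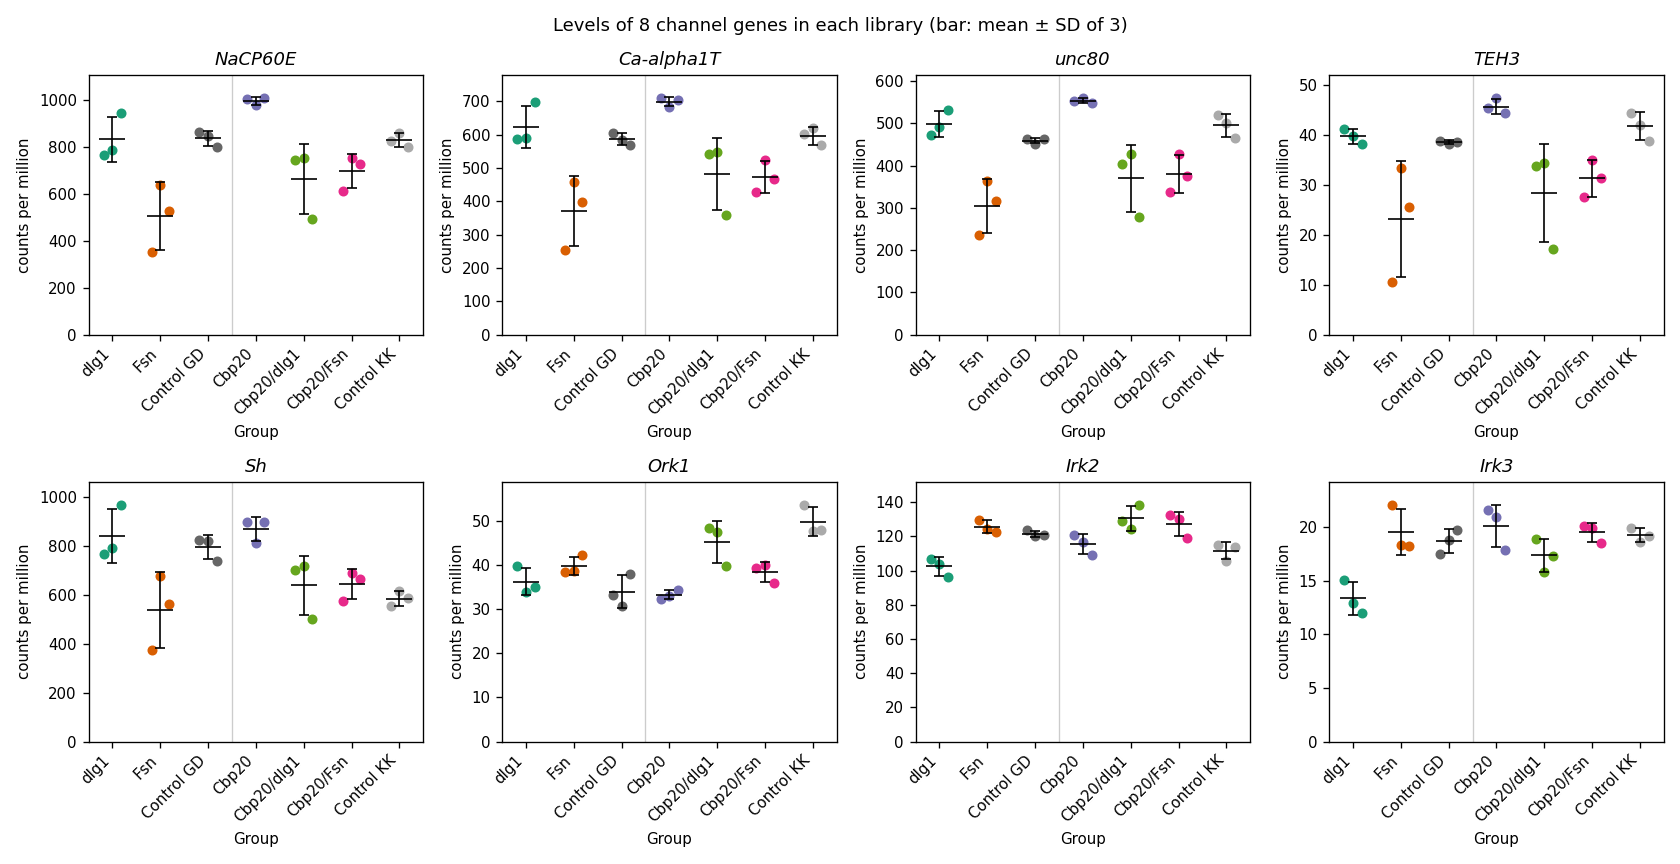
Level of 8 channel genes in each library, in CPM on axes that start at 0; points are libraries, bars the mean ± SD of 3, and each set of knockdown groups stands left of its control. *NaCP60E*, *Ca-alpha1T*, *unc80*, *TEH3* and *Sh* are lowest in *Fsn* heads, *Irk2* and *Irk3* are lowest in *dlg1* heads, and *Ork1* is highest in Control KK heads.

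The shares of channel genes called in the pairwise knockdowns against Control KK were small and were not tested against those of all genes. In *Cbp20/dlg1* heads 1 of 36 channel genes rose and 3 fell, beside 7.37% and 5.76% of all genes, with a median log2 fold change of −0.08 over the channel genes and 0.00 over all genes, and none passed a log2 fold change beyond 1 (2.03% of all genes). *Irk2* rose, at 129.0, 124.4 and 138.3 CPM in *Cbp20/dlg1* heads, against 115.3, 105.8 and 114.0 CPM in Control KK heads (0.23 ± 0.06 SE, FDR = 0.0132). *unc80* fell, at 403.3, 427.1 and 278.5 CPM in *Cbp20/dlg1* heads, against 519.7, 501.2 and 465.2 CPM in Control KK heads (−0.42 ± 0.14 SE, FDR = 0.0491). *sand*, a sleep-related two-pore channel, was at 9.79, 11.4 and 9.77 CPM in *Cbp20/dlg1* heads, against 13.2, 14.1 and 12.3 CPM in Control KK heads (−0.36 ± 0.09 SE, FDR = 0.0149). *TEH4* was at 23.9, 21.3 and 21.4 CPM in *Cbp20/dlg1* heads, against 25.1, 25.7 and 26.8 CPM in Control KK heads (−0.22 ± 0.06 SE, FDR = 0.0304). These 4 genes were shown because they were called without overlap between the groups, so the lack of overlap adds no support. No channel gene was called (edgeR) without *Cbp20/dlg1* replicate 3 or without Control KK replicate 2, where 4 had an unadjusted p under 0.05 in each fit. The calls of *unc80* and *TEH4* were lost in 5 of the 6 fits that left out 1 library, that of *sand* in 3 and that of *Irk2* in 2. In the shared sequencing batches 1 was called. Against Control GD none of the 4 calls was kept, and 4 other channel genes were called. None of 11 neuron markers was called in edgeR (1 at an unadjusted p under 0.05, and 1 called in DESeq2), with sums of 8155 to 9893 CPM in *Cbp20/dlg1* heads, against 9026 to 9556 CPM in Control KK heads. Of 7 antenna markers 5 rose, of 14 photoreceptor markers 2 rose and 4 fell, and of 7 fat body markers 1 rose and 1 fell. Their part in the channel levels was not tested.

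In *Cbp20/Fsn* heads 1 channel gene rose and 2 fell, beside 8.63% and 8.45% of all genes, with a median of −0.05 over the channel genes and 0.00 over all genes, and none passed a log2 fold change beyond 1 (3.00% of all genes). *sand* was at 9.66, 10.25 and 8.40 CPM in *Cbp20/Fsn* heads, against 13.2, 14.1 and 12.3 CPM in Control KK heads (−0.48 ± 0.09 SE, FDR = 0.00148). *Ork1* was at 39.4, 40.1 and 35.9 CPM in *Cbp20/Fsn* heads, against 53.6, 47.8 and 48.0 CPM in Control KK heads (−0.37 ± 0.09 SE, FDR = 0.00554). Both falls passed without any 1 library, but against Control GD that of *Ork1* turned to 0.18 (FDR = 0.153). *Irk2* rose slightly, at 132.6, 130.0 and 119.4 CPM in *Cbp20/Fsn* heads, against 115.3, 105.8 and 114.0 CPM in Control KK heads (0.19 ± 0.06 SE, FDR = 0.0312). It did not pass in 4 of the 6 fits that left out 1 library. Against Control GD the call of *sand* was kept and those of *Ork1* and *Irk2* were not, and 4 channel genes were called in all. The neuron markers, of which 1 fell, were at 8472 to 9443 CPM in *Cbp20/Fsn* heads, against 9026 to 9556 CPM in Control KK heads. Of 14 photoreceptor markers 10 fell and 1 rose (78674 to 82859 CPM in *Cbp20/Fsn* heads, against 86207 to 92337 CPM in Control KK heads), 5 of 7 fat body markers fell (33996 to 38298 CPM in *Cbp20/Fsn* heads, against 45539 to 54809 CPM in Control KK heads) and 5 of 7 antenna markers rose. Their part in the channel levels was not tested.

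Set against *Cbp20* knockdown alone, both pairwise knockdowns had lower channel levels. In *Cbp20/dlg1* heads 15 of 36 channel genes were lower and 2 higher than in *Cbp20* heads, beside 13.6% and 18.6% of all genes, with a median of −0.27 over the channel genes and 0.01 over all genes. None passed a log2 fold change beyond 1 (4.35% of all genes). *NaCP60E* was at 744.5, 751.2 and 492.7 CPM in *Cbp20/dlg1* heads, against 1004, 976.1 and 1006 CPM in *Cbp20* heads (−0.59 ± 0.17 SE, FDR = 0.0108). *unc80* (553.3, 559.0 and 547.4 CPM in *Cbp20* heads) had a log2 fold change of −0.58 ± 0.14 (SE, FDR = 0.00343) and *Ca-alpha1T* one of −0.53 ± 0.16 (SE, FDR = 0.0172). *na* was at 166.8, 168.1 and 126.9 CPM in *Cbp20/dlg1* heads, against 214.3, 211.4 and 213.3 CPM in *Cbp20* heads (−0.47 ± 0.11 SE, FDR = 0.00312). *Ork1* was higher, at 48.4, 47.6 and 39.8 CPM in *Cbp20/dlg1* heads (0.44 ± 0.09 SE, FDR = 0.000698), and so was *Irk2* (0.17 ± 0.06 SE, FDR = 0.0276, lost in 3 of the 6 fits that left out 1 library). The number called was 6 without *Cbp20/dlg1* replicate 3, the lowest library of its group for 31 of 36 genes, where *NaCP60E* (FDR = 0.0770), *Ca-alpha1T* (FDR = 0.117) and *Irk2* (FDR = 0.146) did not pass. It was 26 in the shared sequencing batches. Shares of all genes in these fits are not given here. Of 11 neuron markers 4 were lower and none higher (median −0.27; 8155 to 9893 CPM in *Cbp20/dlg1* heads, against 10287 to 10981 CPM in *Cbp20* heads), and 2 were lower without *Cbp20/dlg1* replicate 3. Of 7 fat body markers 5 were higher (median 0.88; 37238 to 48690 CPM in *Cbp20/dlg1* heads, against 19057 to 24979 CPM in *Cbp20* heads), 4 of 7 muscle markers were lower (median −0.31), and of 14 photoreceptor markers 5 were higher and 3 lower. Their part in the channel levels was not tested.

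In *Cbp20/Fsn* heads 17 of 36 channel genes were lower and 1 higher than in *Cbp20* heads, beside 11.8% and 17.4% of all genes, with a median of −0.26 over the channel genes and 0.03 over all genes. None passed a log2 fold change beyond 1 (4.21% of all genes). *Ca-alpha1T* was at 429.7, 523.3 and 467.0 CPM in *Cbp20/Fsn* heads, against 709.2, 684.3 and 704.4 CPM in *Cbp20* heads (−0.56 ± 0.16 SE, FDR = 0.0147). *unc80* was at 336.7, 426.7 and 375.6 CPM in *Cbp20/Fsn* heads (−0.54 ± 0.14 SE, FDR = 0.00667), *NaCP60E* at 614.0, 753.1 and 726.0 CPM (−0.51 ± 0.17 SE, FDR = 0.0254) and *Sh* at 574.2, 690.7 and 664.0 CPM (−0.43 ± 0.16 SE, FDR = 0.0492), all below every *Cbp20* library, as was required for showing them. *Irk1* was the 1 gene that was higher, at 29.5, 32.4 and 30.3 CPM in *Cbp20/Fsn* heads, against 25.8, 25.1 and 27.1 CPM in *Cbp20* heads (0.24 ± 0.07 SE, FDR = 0.0209). Of these calls, *unc80* passed without any 1 library, whereas *Ca-alpha1T* was lost in 1 of 6 fits, *Irk1* in 3, *NaCP60E* in 4 and *Sh* in 6. The number called was between 4, without *Cbp20/Fsn* replicate 1, and 16 when 1 library was left out, and 29 when the fit held only these 2 groups. It was 7 without *Cbp20* replicate 1, 11 without *Cbp20* replicate 2, 9 without *Cbp20* replicate 3 and 10 without *Cbp20/Fsn* replicate 3. Shares of all genes in these fits are not given here. Of 11 neuron markers 6 were lower and none higher (median −0.29), and 2 were lower without *Cbp20/Fsn* replicate 1. Of 7 fat body markers 4 were higher (median 0.64), of 7 muscle markers 1 was higher and 2 lower, and of 14 photoreceptor markers 3 were higher and 4 lower. Of 4 ovary markers tested 3 were higher, but their sums differed widely within the group. They were 10.26, 0.707 and 36.94 CPM in *Cbp20/Fsn* replicates 1, 2 and 3, against 0.963 to 1.27 CPM in *Cbp20* heads. Their part in the channel levels was not tested. Both pairwise comparisons share the *Cbp20* libraries, whose channel genes were high against Control KK.

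The controls differed from each other in few channel genes. In Control KK heads 1 of 36 rose and 1 fell against Control GD, beside 11.8% and 9.12% of all genes, with a median of −0.08 over the channel genes and 0.00 over all genes, and none passed a log2 fold change beyond 1 (3.36% of all genes). *Ork1* was at 53.6, 47.8 and 48.0 CPM in Control KK heads, against 33.1, 30.7 and 38.0 CPM in Control GD heads (0.55 ± 0.09 SE, FDR = 0.000117), and passed without any 1 library. *Shal* was at 131.3, 134.1 and 137.7 CPM in Control KK heads, against 163.5, 155.9 and 149.9 CPM in Control GD heads (−0.22 ± 0.07 SE, FDR = 0.0329), and passed in 1 of the 6 fits that left out 1 library. *Sh* was at 552.4, 615.1 and 586.9 CPM in Control KK heads, against 825.2, 820.6 and 737.9 CPM in Control GD heads. These groups were apart, yet the difference did not pass (−0.44 ± 0.16 SE, FDR = 0.0580). When the fit held only the controls, 15 channel genes were lower and 1 higher in Control KK heads, with the share of all genes in that fit not given here. None of 11 neuron markers was called in edgeR or DESeq2 (1 and 2 at an unadjusted p under 0.05), with sums of 9026 to 9556 CPM in Control KK heads, against 9805 to 10687 CPM in Control GD heads. Of 7 fat body markers 5 were higher in Control KK heads, with a median log2 fold change of 0.67. All 7 antenna markers fell beyond a log2 fold change of 1 (11.5 to 13.8 CPM in Control KK heads, against 46.9 to 118 CPM in Control GD heads), 4 of 7 muscle markers fell, 2 of 8 glia markers rose, and of 14 photoreceptor markers 4 rose and 4 fell. Their part in the channel levels was not tested.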

How the data were processed

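The authors sequenced single-end reads from stranded mRNA libraries of 3 biological replicates for each of 7 groups, trimmed them with Trimmomatic 0.36, aligned them to the Release 6 fly genome with TopHat2 2.1.1 and counted them per gene with HTSeq 0.6.1. The deposited values are raw read counts per gene, without normalization, in 1 column for each sequencing batch. The batches of a library were summed here, 3 batches for 17 libraries and 2 for the other 4. The 5 HTSeq summary rows were left out. Reads on no gene were 10.2% to 14.6% and reads on several genes 2.09% to 2.88% of the reads assigned to a gene, to none or to several, and the strand setting is not given in the sources used here. Counts of *sei*, *KCNQ*, *NaCP60E*, *Irk1*, *Irk3*, *sand*, *unc79*, *Shawl*, *Hk* and *Ca-alpha1D*, whose exons overlap genes on the other strand, and of *TEH2*, *TEH3* and *tipE*, whose exons overlap other counted genes on the same strand, are therefore less certain.

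Symbols, coordinates and exon lengths were taken from the Ensembl annotation of BDGP6. All 21 libraries entered 1 edgeR 4.0.16 quasi-likelihood fit (R 4.3.3) with a coefficient for each group, TMM normalization and edgeR's filter on low counts, which left 10558 genes. FDR values are Benjamini-Hochberg adjusted over all of them, and a gene was said to rise or fall at an FDR under 0.05. CPM values are TMM-normalized. A count of 3 is 0.104 to 0.169 CPM, a limit for counting error only. For each comparison, values of every library were given for up to 4 channel genes with the largest rises and up to 4 with the largest falls among those called and without overlap between groups. The lack of overlap in those genes follows from that choice and adds no support to their calls. *Irk1*, *Sh* and the other genes named with single values were added after their values were seen. Marker lists (neurons, glia, photoreceptors, muscle, fat body, antenna and ovary) and lists of related genes matched 113 of 115 symbols. The channel genes and lists were chosen with earlier results of these data known. Alternatives were RLE normalization, DESeq2 1.42.0, the likelihood ratio test, no filter, only the groups compared, the replicate number as a block, the control of the other background, a log2 fold change beyond 1 and each replicate left out. The sequencing batches shared by all libraries were added after the data were seen. Nothing in the labels ties replicates to separate crosses, so p-values measure the spread between these libraries.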

Additional observations from a re-analysis of the deposited data

Results flagged for a closer look

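The level of channel genes differed between knockdowns in 3 direct tests (edgeR, FDR under 0.05). *Fsn* against *dlg1* knockdown had 30 of 36 channel genes called, 28 lower and 2 higher in *Fsn* heads, beside 18.6% and 19.9% of all genes. It had 26 called without *Fsn* replicate 1 and 25 without *dlg1* replicate 3. *Cbp20/dlg1* against *Cbp20* had 17, of which 15 were lower and 2 higher in *Cbp20/dlg1* heads, beside 13.6% and 18.6% of all genes, and 6 without *Cbp20/dlg1* replicate 3. *Cbp20/Fsn* against *Cbp20* had 18, of which 17 were lower and 1 higher in *Cbp20/Fsn* heads, beside 11.8% and 17.4% of all genes, and 4 without *Cbp20/Fsn* replicate 1. Outliers within groups were not tested, since each group holds 3 libraries.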

How the results depend on the processing

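The counts of channel genes called were compared under each alternative. Shares of all genes called under these alternatives are not given in this section, so the counts do not show whether a shift was particular to channel genes. A log2 fold change beyond 1 gave 0 in all 9 comparisons. When the fit held only the groups compared, the count was 12 for *Fsn* against Control GD, 28 for *Cbp20* against Control KK, 2 and 9 for the pairwise *Cbp20/dlg1* and *Cbp20/Fsn* heads against that control, 16 for Control KK against Control GD, 14 for *Fsn* against *dlg1* and 29 for *Cbp20/Fsn* against *Cbp20*. With the control of the other background it was 9 for *dlg1*, 17 for *Fsn* and 2 for *Cbp20*, and 4 each for *Cbp20/dlg1* and *Cbp20/Fsn*, of which 0 and 1 were also called against Control KK. Of single called changes, 19 were kept with that control, 25 were lost and 2 turned. With no low-count filter it was 2 for *dlg1* against Control GD. In the shared sequencing batches, an alternative chosen after seeing the data, it was 13 for *Cbp20* and 1 for *Cbp20/dlg1* against Control KK, and 26 for *Cbp20/dlg1* against *Cbp20*. The cause of these differences was not tested, although fits of 2 groups estimate the spread from fewer libraries. RLE normalization, DESeq2 and the likelihood ratio test left every count within 1.5 times.

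With 1 library left out, the count ranged over 1 to 3 for *dlg1* and 15 to 28 for *Fsn* against Control GD, 1 to 4 for *Cbp20* against Control KK, 0 to 3 and 2 to 3 for the pairwise *Cbp20/dlg1* and *Cbp20/Fsn* heads against that control, 1 to 2 for Control KK against Control GD, 25 to 30 for *Fsn* against *dlg1*, 6 to 22 for *Cbp20/dlg1* and 4 to 16 for *Cbp20/Fsn* against *Cbp20*. The replicate number as a block gave 28 for *Fsn* and 3 for *dlg1* against Control GD and 5, 4 and 3 for *Cbp20*, *Cbp20/dlg1* and *Cbp20/Fsn* against Control KK. Same-numbered libraries did not deviate together (correlations −0.324 to 0.0885), which gave no sign of pairing but cannot exclude it. Of 113 called changes of single genes, both that turned were of *Ork1* with the other control: to −0.32 in *Fsn* and 0.18 in *Cbp20/Fsn* heads. DESeq2 kept 111, RLE normalization 109 and the fits of only the groups compared 77 of 113.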
